A study of Danio rerio with 32 samples.

Results

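A set of 10 genes of the visual cycle and of ocular vitamin A handling were followed through eyes of zebrafish embryos exposed to perfluorononanoic acid (PFNA, a long-chain fluorinated surfactant) under a light-dark cycle or in constant darkness. The genes are rpe65a, rgra, rgrb, rbp3, rdh5, rdh8a, rdh8b, rlbp1a, rlbp1b and stra6. They were taken by name from a table of 32520 genes, and all 10 were found there. Wildtype embryos of every group were kept in 0.1% DMSO as solvent, carrying 0 or 12.5 µM PFNA, between 0.75 and 120 hours after fertilization. Light was either 14 h light and 10 h dark per day (LD) or 24 h dark (DD). This gives 4 eye groups of 4 libraries each, called here LD DMSO, LD PFNA, DD DMSO and DD PFNA, and the same 4 groups were dissected as brain. The design text calls the chemical PFHxS and every sample label calls it PFNA, and the labels are followed here. The labels do not say how many eyes went into a library, at which hour eyes were taken or whether replicates were separate clutches, so a p-value reflects only how far these particular samples scatter.

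Light converts the retinal bound to a visual pigment from its cis to its trans form, and vision continues only while the cis form is made again. In the classical cycle the photoreceptor reduces trans-retinal to retinol, the retinal pigment epithelium (RPE) stores it as an ester, turns the ester into cis-retinol and oxidises that to cis-retinal, and carrier proteins move the retinoids between and within the cells. Cone-rich eyes such as that of the zebrafish larva also use Müller glia for supply. Of the members, rpe65a encodes the RPE isomerase, rgra and rgrb encode RGR opsins of RPE and Müller glia, rdh5 and the rdh8 pair encode retinol dehydrogenases, rbp3 and the rlbp1 pair encode retinoid carriers, and stra6 encodes a membrane receptor for plasma retinol-binding protein.

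Values are FPKM (fragments per kilobase of gene length, scaled by a size per library, a level per length). That size was not simply the sum of gene fragments. A level of 1 FPKM over 1 kb stood for 9.91 fragments in eye DD PFNA replicate 4, which held 11.01 M. It stood for 12.25 fragments in eye DD DMSO replicate 1, which held 11.79 M. How the size was set is not known here. The 16 eye libraries held 8.83 to 15.72 M fragments in genes. The least covered member, stra6, had 7 to 47 fragments per eye library, and each of the others had at least 177. Eye DD PFNA replicate 4 stood apart from its group. It had the highest level of all 16 eye libraries for rgra, rgrb, rdh5, rdh8a and rlbp1a and the lowest for rdh8b, its mitochondrial genes took 10.01% of fragments against 4.66 to 8.03% in the other 15, and its summed lens markers reached 19042 FPKM against 7883 to 12981. Changes of the members in comparisons that include this library are given with and without it. The other comparisons also draw on it, through the spread estimated over all 16 eye libraries together. In eye tissue taken whole, fewer cells of a type and less RNA per cell cannot be told apart.

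Most of these genes were lowest in LD DMSO eyes. PFNA under LD was accompanied by higher levels of 6 members, darkness without PFNA by higher levels of 7, and PFNA in darkness by a higher level of rdh8a alone among those tested. Together the 10 genes took 0.129 to 0.15% of all gene fragments in LD DMSO eyes, 0.189 to 0.208% in LD PFNA, 0.268 to 0.285% in DD DMSO and 0.250 to 0.288% in DD PFNA. The LD DMSO range lies below the 3 others, and the DD ranges overlap each other. Changes were tested with limma on log2(FPKM + 1) over the 18204 genes that reached 1 FPKM in at least 4 of the 16 eye libraries, and a gene was called at a Benjamini-Hochberg adjusted p under 0.05. Of the members, 9 passed this filter and stra6 did not. The number called was 6 of 9 for PFNA under LD, all higher, where 10.7% of all tested genes were called and 7.05% were called higher. It was 1 of 9 for PFNA under DD, higher, where 10.9% of all tested genes were called and 6.54% were called higher. For DD against LD in DMSO eyes it was 8 of 9, 7 higher and 1 lower, where 12.6% of all genes were called, 6.22% higher and 6.34% lower. For DD against LD in PFNA eyes it was 5 of 9, 4 higher and 1 lower, where 16.1% of all genes were called, 7.04% higher and 9.05% lower. Without eye DD PFNA replicate 4 the member counts were again 6, 1, 8 and 5, while the share of all genes called was 17.7%, 14.1%, 22.1% and 11.0%. In the last of these rbp3 took the place of rdh5. In the comparisons that do not include that library, leaving it out made the SE of each member smaller and changed no member's call. The groups compared did not overlap in FPKM for 6, 1, 8 and 4 of the 9 members, against 23.0%, 14.5%, 24.9% and 19.3% of all tested genes. The LD DMSO libraries are the reference of both the comparison of PFNA under LD and that of darkness in DMSO eyes, and each other group is likewise used in 2 comparisons, so these counts are not independent of each other. The members were also chosen with earlier results of these data known. Their counts beside the shares of all genes are therefore a description, not a test.

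**Figure D1:**
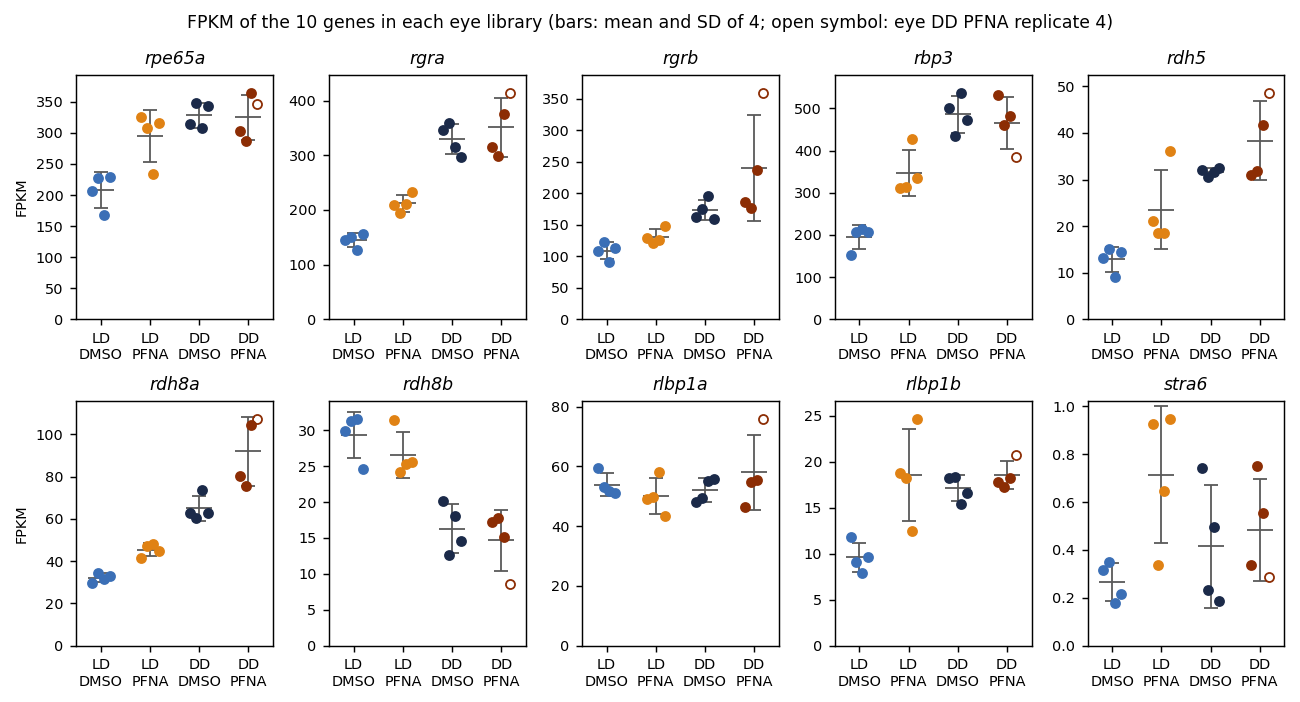
FPKM (linear axes from 0) of each of the 10 genes in the 4 libraries of each eye group, with mean and SD as bars and eye DD PFNA replicate 4 as an open symbol. For rpe65a, rgra, rbp3, rdh5, rdh8a and rlbp1b every LD PFNA and every DD DMSO library lies above all 4 LD DMSO libraries, while rdh8b is lower in both DD groups.

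The isomerase gene rpe65a (ENSDARG00000007480, chromosome 2, 1428696 to 1443692, minus strand) had the highest mean of the members in LD DMSO eyes. Its range overlapped that of rbp3, and it was the higher of the pair in 3 of 4 libraries. Positions are those of the deposited table, whose genome build was not stated in what was used here. The product of rpe65a cleaves the retinyl ester and isomerises it, the step at which the cis form is regained. Its level was 206, 228, 167 and 229 FPKM in the 4 LD DMSO libraries and 325, 307, 234 and 316 FPKM in LD PFNA. The groups did not overlap, although LD PFNA replicate 3 lay only just above the highest control. Mean levels were 208 ± 28.8 and 295 ± 41.8 FPKM (SD, n = 4), a log2 change of 0.51 ± 0.13 (SE, limma, adjusted p = 0.0191). In darkness the level was 315, 348, 307 and 343 FPKM with DMSO and 303, 287, 365 and 346 FPKM with PFNA. All 8 dark libraries exceeded every LD DMSO library and the 2 dark groups overlapped. Darkness raised rpe65a in DMSO eyes by 0.67 ± 0.13 (log2, adjusted p = 0.00452), while PFNA within darkness gave -0.02 ± 0.13 (adjusted p = 0.948) and darkness within PFNA eyes 0.14 ± 0.13 (adjusted p = 0.464). Without eye DD PFNA replicate 4 these were -0.05 (0.847) and 0.11 (0.624). The call for PFNA under LD was lost on leaving out LD DMSO replicate 3 (adjusted p = 0.0701) or LD PFNA replicate 1, 2 or 4 (0.0629, 0.0539 and 0.0601).

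RGR opsin is a light-sensitive retinal-binding protein of RPE and Müller glia that aids the return to the cis form, and zebrafish carry it in duplicate. Of the pair, rgra (ENSDARG00000054890, chromosome 13, 29446226 to 29455859, minus strand) stood at 145, 149.9, 127 and 157 FPKM in LD DMSO eyes and at 209.7, 194, 212 and 232 FPKM in LD PFNA. It reached 346, 358, 316 and 297 FPKM in DD DMSO and 315, 299, 375 and 414 FPKM in DD PFNA. The LD DMSO libraries were lowest, LD PFNA libraries lay between, and all 8 dark libraries were above both. PFNA under LD raised rgra by 0.55 ± 0.12 (log2, limma, adjusted p = 0.00569). Darkness raised it by 1.18 ± 0.12 in DMSO eyes (adjusted p = 3.3e-05), a ratio of mean levels of 2.28, and by 0.72 ± 0.12 in PFNA eyes (adjusted p = 0.002; 0.63 ± 0.10 and 0.00184 without eye DD PFNA replicate 4). PFNA within darkness gave 0.08 ± 0.12 (adjusted p = 0.714), and -0.00 without that library.

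Its paralogue rgrb (ENSDARG00000098724, chromosome 12, 48965049 to 48970299, minus strand) rose in darkness with either treatment. Levels were 109, 123, 90.8 and 114 FPKM in LD DMSO, 129, 121, 127 and 148 FPKM in LD PFNA, 163, 175, 196 and 159.9 FPKM in DD DMSO, and 186, 177, 238 and 359.6 FPKM in DD PFNA. All 8 dark libraries were above all 8 LD libraries, the 2 LD groups overlapped, and so did the 2 DD groups. The change with darkness was 0.67 ± 0.18 in DMSO eyes (log2, limma, adjusted p = 0.0234) and 0.81 ± 0.18 in PFNA eyes (adjusted p = 0.00982; 0.60 ± 0.12 and 0.0069 without eye DD PFNA replicate 4, and 0.0789 with only the 2 groups fitted). The first of these calls was lost without LD DMSO replicate 3 (adjusted p = 0.0757), DD DMSO replicate 2 (0.0505) or DD DMSO replicate 3 (0.0705). These fits keep eye DD PFNA replicate 4, which widens the shared spread. Without that library the same change had an SE of 0.11 and an adjusted p of 0.000917 (limma). PFNA gave 0.27 ± 0.18 under LD (adjusted p = 0.388) and 0.41 ± 0.18 under DD (adjusted p = 0.157), the latter 0.20 ± 0.12 (adjusted p = 0.303) without eye DD PFNA replicate 4.

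The dehydrogenase gene rdh5 (ENSDARG00000008306, chromosome 22, 10110358 to 10121880, minus strand) encodes the RPE enzyme that oxidises cis-retinol to cis-retinal, the last step before export to the photoreceptor. It was read at 13.1, 14.99, 9.06 and 14.4 FPKM in LD DMSO, 21.1, 18.4, 18.6 and 36.1 FPKM in LD PFNA, 32.03, 30.4, 31.6 and 32.5 FPKM in DD DMSO, and 31.0, 31.7, 41.8 and 48.6 FPKM in DD PFNA. LD DMSO was below every other library, and LD PFNA replicate 4 was the one LD library that reached the dark levels. PFNA under LD raised rdh5 by 0.79 ± 0.20 (log2, limma, adjusted p = 0.0197), and darkness raised it by 1.25 ± 0.20 in DMSO eyes (adjusted p = 0.00146), a ratio of mean levels of 2.45. Without LD PFNA replicate 4 the first adjusted p was 0.0539, and without LD DMSO replicate 3 it was 0.0696. Darkness in PFNA eyes gave 0.71 ± 0.20 (adjusted p = 0.0295), but the groups overlapped, and the call was lost with only the 2 groups fitted (adjusted p = 0.114), on leaving out eye DD PFNA replicate 4 (0.59 ± 0.21, adjusted p = 0.0799), and without DD PFNA replicate 3 (0.06) or any of LD PFNA replicates 1 to 3 (0.0692 to 0.0854). PFNA within darkness gave 0.24 ± 0.20 (adjusted p = 0.499), and 0.12 ± 0.21 (0.755) without eye DD PFNA replicate 4. The locus overlaps gls2b on the same strand, which reached at most 7.608 FPKM in any eye library, so part of the reads at the shared end could belong to either gene.

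The rdh8 pair encodes photoreceptor dehydrogenases that reduce trans-retinal to retinol after bleaching, and the paralogues differed in direction. Levels of rdh8a (ENSDARG00000028048, chromosome 3, 53687645 to 53722182, minus strand) were 29.5, 34.6, 31.7 and 33.0 FPKM in LD DMSO, 41.7, 47.3, 48.1 and 44.8 FPKM in LD PFNA, 62.7, 60.3, 73.8 and 62.8 FPKM in DD DMSO, and 80.3, 75.5, 104 and 107 FPKM in DD PFNA. The 4 groups followed one another with no overlap between any 2 of them. It was the member called in all 4 comparisons. PFNA raised rdh8a by 0.48 ± 0.12 under LD (log2, limma, adjusted p = 0.0125) and by 0.48 ± 0.12 under DD (adjusted p = 0.0136; 0.40 ± 0.11 and 0.0201 without eye DD PFNA replicate 4). Darkness raised it by 0.99 ± 0.12 in DMSO eyes (adjusted p = 0.000182) and by 0.98 ± 0.12 in PFNA eyes (adjusted p = 0.000204; 0.90 ± 0.11 and 0.000229 without that library), with a ratio of mean levels of 2.02 in both. When only the DD DMSO and DD PFNA libraries were fitted, the adjusted p of the PFNA change in darkness was 0.109.

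In contrast, rdh8b (ENSDARG00000105060, chromosome 1, 59293873 to 59303460, plus strand) fell in darkness. It measured 29.9, 31.2, 31.6 and 24.7 FPKM in LD DMSO and 31.4, 24.2, 25.2 and 25.5 FPKM in LD PFNA, against 20.1, 12.6, 18.0 and 14.5 FPKM in DD DMSO and 17.3, 17.8, 15.1 and 8.56 FPKM in DD PFNA. All 8 dark libraries lay below all 8 LD libraries, and treated and control libraries overlapped at both photoperiods. It fell by 0.82 ± 0.19 in DMSO eyes (log2, limma, adjusted p = 0.0129) and by 0.86 ± 0.19 in PFNA eyes (adjusted p = 0.0113; -0.63 ± 0.14 and 0.0131 without eye DD PFNA replicate 4, and 0.0707 with only the 2 groups fitted). PFNA gave -0.14 ± 0.19 under LD (adjusted p = 0.730) and -0.17 ± 0.19 under DD (adjusted p = 0.642), the latter 0.05 ± 0.14 (0.858) without eye DD PFNA replicate 4.

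Interphotoreceptor retinoid-binding protein, the product of rbp3 (ENSDARG00000059163, chromosome 12, 2665081 to 2670156, plus strand), is secreted into the space between photoreceptors and RPE and carries retinoids across it. Levels were 152, 206, 214 and 207 FPKM in LD DMSO, 312, 313, 428 and 335 FPKM in LD PFNA, 502, 434, 537 and 473 FPKM in DD DMSO, and 533, 459.9, 482 and 386 FPKM in DD PFNA. The LD DMSO libraries were lowest, LD PFNA came next, and the 2 dark groups overlapped. LD PFNA replicate 3 exceeded 1 dark library, DD PFNA replicate 4, and lay below the other 7. Mean levels were 195 ± 28.9 and 347 ± 55.0 FPKM (SD, n = 4) in the 2 LD groups, a log2 change of 0.83 ± 0.14 (limma, adjusted p = 0.00136). Darkness in DMSO eyes raised rbp3 by 1.33 ± 0.14 (adjusted p = 7.4e-05), a ratio of mean levels of 2.5. PFNA within darkness gave -0.07 ± 0.14 (adjusted p = 0.811), and 0.02 ± 0.13 (0.958) without eye DD PFNA replicate 4. Darkness within PFNA eyes gave 0.43 ± 0.14 at an adjusted p of 0.0508, and 0.51 ± 0.13 at 0.0244 without eye DD PFNA replicate 4. This comparison also passed without LD DMSO replicate 1 (0.0387) or LD PFNA replicate 3 (0.0266), and with voom weights on recovered fragments (0.0427).

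The cellular retinaldehyde-binding proteins made from the rlbp1 pair hold cis-retinoids inside cells, with rlbp1a known in zebrafish from the RPE and rlbp1b from Müller glia. Which cells held either transcript was not measured in these eyes. After each group's mean was removed, Pearson r with the RPE genes rpe65a and rdh5 was 0.658 and 0.688 for rlbp1b, and -0.057 and 0.109 for rlbp1a. With rgra and rgrb it was 0.464 and 0.364 for rlbp1b, and 0.277 and 0.593 for rlbp1a. LD PFNA replicate 4 was the highest of its group for both rdh5 and rlbp1b, and its part in these r was not tested. They carry no test and assign neither transcript to a cell type. No r with Müller glia markers is given. Of the pair, rlbp1a (ENSDARG00000012504, chromosome 7, 13867722 to 13884610, minus strand) ran at 59.5, 53.2, 51.9 and 51.1 FPKM in LD DMSO, 49.04, 49.8, 58.0 and 43.5 FPKM in LD PFNA, 48.2, 49.4, 55.2 and 55.9 FPKM in DD DMSO, and 46.3, 54.6, 55.5 and 75.9 FPKM in DD PFNA. All 4 groups overlapped, with DD PFNA replicate 4 above all others. No comparison called rlbp1a in the limma fit: the log2 changes were -0.11, 0.13, -0.05 and 0.19, each ± 0.13, with adjusted p-values of 0.675, 0.580, 0.850 and 0.307 in the order used above. Without eye DD PFNA replicate 4 the value for PFNA under DD was -0.00 (0.994) and that for darkness in PFNA eyes 0.06 (0.740).

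The other gene of the pair, rlbp1b (ENSDARG00000045808, chromosome 25, 19105804 to 19118127, plus strand), was read at 11.8, 9.06, 7.94 and 9.59 FPKM in LD DMSO. It was read at 18.8, 18.2, 12.5 and 24.6 FPKM in LD PFNA, 18.2, 18.3, 15.4 and 16.6 FPKM in DD DMSO, and 17.8, 17.3, 18.3 and 20.7 FPKM in DD PFNA. The LD DMSO libraries were the lowest and the 3 other groups overlapped one another. PFNA under LD raised rlbp1b by 0.86 ± 0.16 (log2, limma, adjusted p = 0.00256), a ratio of mean levels of 1.93. Darkness in DMSO eyes raised it by 0.78 ± 0.16 (adjusted p = 0.00596). PFNA within darkness gave 0.11 ± 0.16 (adjusted p = 0.733) and darkness within PFNA eyes 0.03 ± 0.16 (adjusted p = 0.910), and without eye DD PFNA replicate 4 they were 0.06 (0.875) and -0.02 (0.952).

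The receptor gene stra6 (ENSDARG00000051874, chromosome 25, 22571475 to 22634675, plus strand) was near the limit of detection. It was read at 0.316, 0.348, 0.18 and 0.215 FPKM in LD DMSO, 0.925, 0.338, 0.647 and 0.947 FPKM in LD PFNA, 0.743, 0.235, 0.495 and 0.188 FPKM in DD DMSO, and 0.337, 0.75, 0.554 and 0.289 FPKM in DD PFNA. All groups overlapped, and none of the libraries reached 1 FPKM, so the filter left stra6 out. With no filter on low values it was tested, and the members called were again 6, 1, 8, 5 and 0, now of 10, with stra6 not among them.

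**Figure D2:**
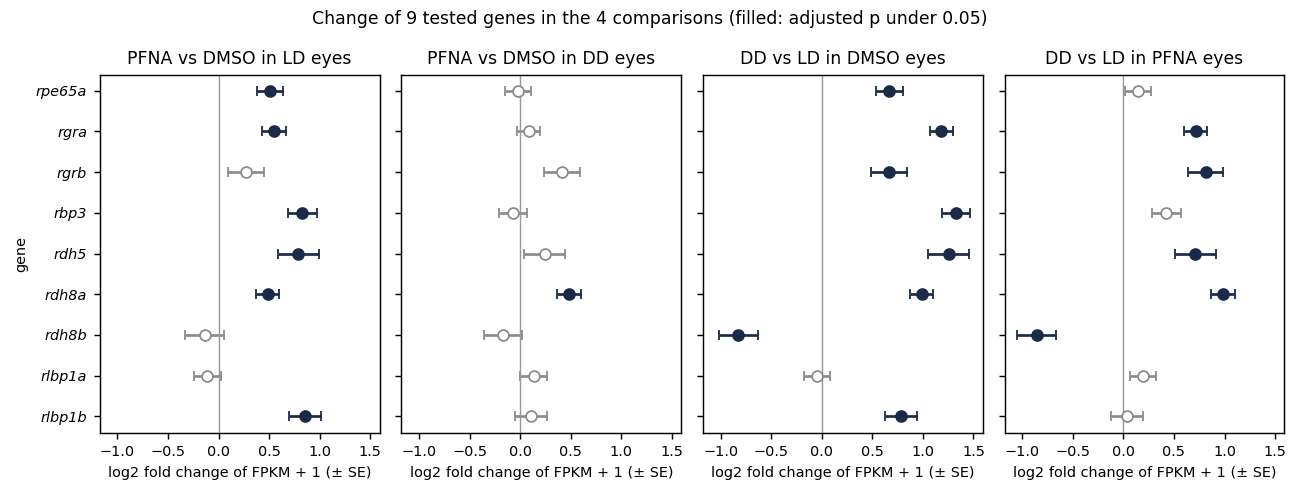
Log2 fold change of FPKM + 1 with its SE for the 9 tested genes in the 4 comparisons (limma, filled symbols for an adjusted p under 0.05). For PFNA under LD 6 genes are filled on the right, and for darkness in DMSO eyes the same 6 and rgrb. For PFNA under DD rdh8a is the one filled symbol, and rdh8b is filled on the left in both darkness panels.

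The order of levels within an eye also differed between groups. In LD DMSO eyes rpe65a (208 FPKM on average) and rbp3 (195 ± 28.9) led and did not differ beyond their spread, rpe65a being higher in 3 of 4 libraries. They were followed by rgra (145 ± 12.8), rgrb (109 ± 13.4) and rlbp1a (53.9 ± 3.8). Next came rdh8a (32.2 ± 2.13) and rdh8b (29.3 ± 3.2), whose ranges overlapped, then rdh5 (12.9 ± 2.67) and rlbp1b (9.59 ± 1.61), whose ranges also overlapped, and stra6 (0.265 ± 0.0799). In DD DMSO eyes rbp3 (487 ± 43.9) stood above all others without overlap, rgra (329 ± 28.0) and rpe65a (328 ± 20.2) were level, and rdh8a (64.9 ± 6.06) had passed rlbp1a (52.2 ± 3.95) without overlap. There rdh8b (16.3 ± 3.38) ranked ninth with rlbp1b (17.1 ± 1.41), their ranges overlapping. Among all genes of the table, rpe65a ranked 173 by mean level in LD DMSO eyes, rbp3 190, rgra 268 and rgrb 395.

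Whether the PFNA change differed between darkness and the light-dark cycle was tested directly as a difference of differences. For rbp3 the PFNA change was 0.90 ± 0.20 lower in log2 in DD than in LD (limma, adjusted p = 0.107), for rlbp1b the difference was -0.75 ± 0.23 (0.217), for rpe65a -0.53 ± 0.18 (0.297) and for rgra -0.47 ± 0.16 (0.297). These 4 had an unadjusted p under 0.05. The share of all tested genes under that unadjusted threshold is not given. Counts at it, here and for the gene lists below, therefore have no background to be read against. None of the 9 members was called by limma or by voom, where 0.137% of all tested genes were called by limma, and 0.316% without eye DD PFNA replicate 4. By voom 5 members had an unadjusted p under 0.05. The adjusted p-values over all settings tried ran from 0.072 to 0.220 for rbp3, 0.0933 to 0.366 for rlbp1b, 0.196 to 0.439 for rpe65a and 0.097 to 0.441 for rgra. The calls under LD and the missing calls under DD therefore do not by themselves show a different response. For rdh8a the difference was -0.00 ± 0.16 (adjusted p = 0.996). Without eye DD PFNA replicate 4 the 5 differences were -0.81 (rbp3), -0.80 (rlbp1b), -0.56 (rpe65a), -0.55 (rgra) and -0.08 (rdh8a).

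The 3 paralogue pairs were also compared as a ratio within each library, which cancels what acts on a whole library. For rdh8a over rdh8b the ratio of FPKM had a median of 1.05 in LD DMSO eyes, 1.83 in LD PFNA, 4.21 in DD DMSO and 5.77 in DD PFNA, where replicate 4 reached 12.5. The log2 ratio was 1.81 higher in DD DMSO than in LD DMSO and 1.84 higher in DD PFNA than in LD PFNA, with no overlap in either (exact permutation test, two-sided, p = 0.0286 each). The second of these was 1.54 when eye DD PFNA replicate 4 was left out. For rlbp1a over rlbp1b the median ratio was 5.6 in LD DMSO and 2.67, 3.03 and 3.1 in LD PFNA, DD DMSO and DD PFNA. The difference in its log2 ratio was -0.97 between LD PFNA and LD DMSO and -0.83 between DD DMSO and LD DMSO (exact permutation test, p = 0.0286 each). For rgra over rgrb the median ratio was 1.35, 1.61, 1.96 and 1.63 in the same order, with differences of 0.28 for PFNA under LD and 0.52 for darkness in DMSO eyes (exact permutation test, p = 0.0286 each). A p of 0.0286 is the smallest that 4 against 4 libraries allow. It was reached in 6 of the 12 comparisons of ratios, and adjusted over the 12 it is 0.0571, so none passed 0.05 after adjustment. Without LD PFNA replicate 1, or without DD DMSO replicate 3, 4 ratio differences each reached an adjusted p of 0.049. At the smallest p the adjusted value is set by how many of the 12 comparisons share that p. The lower value therefore adds nothing on the size of any single ratio.

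**Figure D3:**
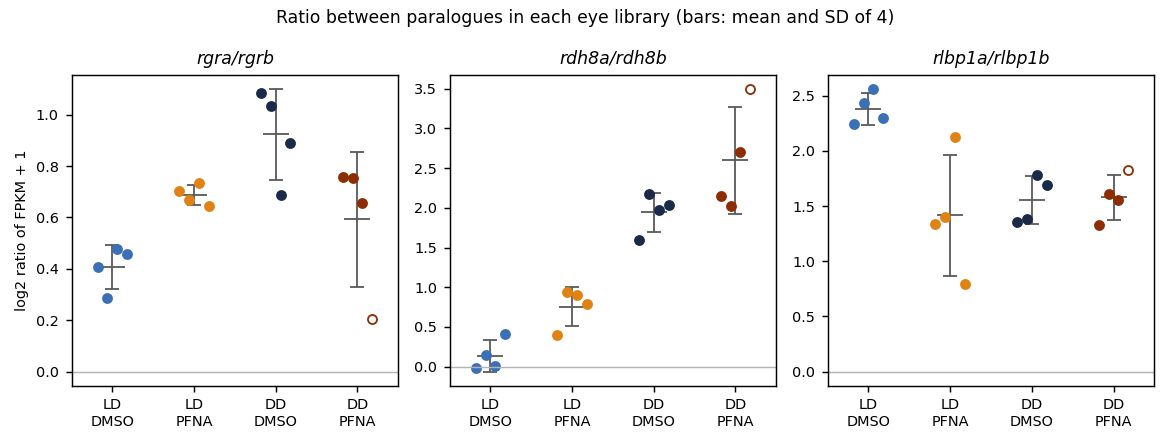
Log2 ratio of FPKM + 1 between the 2 genes of each pair in every eye library (bars are mean and SD of 4, open symbol for eye DD PFNA replicate 4, axes not starting at 0). The rdh8a/rdh8b ratio is higher in each DD group than in the LD group of the same treatment, and the rlbp1a/rlbp1b ratio is highest in LD DMSO.

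Over the 16 eye libraries Pearson r ran from 0.655 to 0.946 for the 15 pairs among rpe65a, rgra, rbp3, rdh5, rdh8a and rlbp1b. These 6 members were picked because each was called higher both with PFNA under LD and with darkness in DMSO eyes. The same libraries gave those calls, so a positive r among the 6 follows largely from the choice. Much of this r is the difference between groups that the libraries share. After each group's mean was removed, r ran from -0.732 to 0.759, and the 5 pairs with rbp3 ran from -0.732 to 0.124. The gene outside the set whose log2 level was most like a member's over the 16 eye libraries was bnip3lb for rdh5 (r = 0.970), rgra (0.967) and rpe65a (0.895). It was pde5aa for rdh8a (0.979), txnipa for rbp3 (0.956), bri3 for rgrb (0.957), kdm5c for rdh8b (0.962), hhipl1 for rlbp1b (0.931) and crygm2d11 for rlbp1a (0.894). The next in line were slc15a4 (0.962) and ak4 (0.961) for rgra, ptgdsb.1 (0.929) and ugt1b1 (0.921) for rdh5, and crhbp (0.974) and uts1 (0.969) for rdh8a. These correlations describe the same 4 groups and carry no test. All of them include eye DD PFNA replicate 4, and none is given without it. That library was the highest of 16 for rgra, rgrb, rdh5, rdh8a and rlbp1a and the lowest for rdh8b, and its summed lens markers were also the highest. Its part in any r was not tested.

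Other genes of the visual cycle, of retinoid uptake and of retinoic acid turnover were read from 3 lists. Of 26 other visual cycle genes 23 were in the table and 17 were tested. With PFNA under LD 5 rose and none fell, with a median log2 change of 0.29 against 0.01 over all genes tested. With PFNA under DD 4 rose and 1 fell (median 0.25), with darkness in DMSO eyes 2 rose and 1 fell (0.05), and with darkness in PFNA eyes 3 rose and 2 fell (0.11). The share of all tested genes called was 10.7%, 10.9%, 12.6% and 16.1% in these 4 comparisons, to be read beside each list. Leaving out eye DD PFNA replicate 4, 6 rose and 0 fell, 4 rose and 1 fell, 4 rose and 1 fell, and 3 rose and 3 fell. These small counts depended on single libraries: without 1 library at a time they ran from 1 to 6, 3 to 6, 1 to 5 and 4 to 7 called. Among them rrh, which encodes the RPE opsin peropsin, went from 17.5 ± 1.68 FPKM in LD DMSO to 34.6 ± 5.28 in LD PFNA (log2 0.93 ± 0.17, limma, adjusted p = 0.00192). The retinol acyltransferase gene lratb.2, which makes the ester that RPE65 consumes, rose from 28.5 ± 3.57 FPKM in LD DMSO to 43.5 ± 10.9 in LD PFNA (0.57 ± 0.16, adjusted p = 0.0297) and 54.3 ± 2.92 in DD DMSO (0.91 ± 0.16, adjusted p = 0.00222). The LD PFNA call of lratb.2 was lost without any of LD DMSO replicates 1, 2 and 3 and LD PFNA replicates 1 and 3 (adjusted p from 0.0553 to 0.0963).

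Under DD, the photoreceptor reductase gene rdh12 rose with PFNA from 21.2 ± 1.68 to 35.7 ± 6.20 FPKM (log2 0.71 ± 0.13, limma, adjusted p = 0.00239; 0.00372 without eye DD PFNA replicate 4). The retinol dehydrogenase gene rdh10b rose from 3.71 ± 0.495 to 7.54 ± 3.05 FPKM (0.81 ± 0.19, adjusted p = 0.0114; 0.0106 without that library). The retinol desaturase gene cyp27c1 rose from 3.25 ± 0.899 to 7.83 ± 3.25 FPKM (0.999 ± 0.237, adjusted p = 0.0128; 0.0275 without it), with overlapping groups. With only the 2 DD groups fitted, the adjusted p was 0.0943 for rdh10b and 0.0884 for cyp27c1. Of these genes, rdh12 was also called higher with PFNA under LD, from 20.7 to 29.2 FPKM on average (log2 0.47 ± 0.13, limma, adjusted p = 0.0298). Darkness in PFNA eyes raised rdh10a from 15.4 ± 1.47 to 30.6 ± 6.91 FPKM (0.93 ± 0.17, adjusted p = 0.00413; 0.0075 without that library) and cyp27c1 from 2.89 ± 0.47 FPKM (1.11 ± 0.24, adjusted p = 0.00884; 0.0198 without it, 0.0623 with only the 2 groups fitted). Darkness in DMSO eyes raised dhrs9, a short-chain dehydrogenase gene, from 1.86 ± 0.122 to 4.93 ± 1.38 FPKM (1.02 ± 0.27, adjusted p = 0.0247), a call lost without any LD DMSO library or DD DMSO replicate 3 or 4 (0.0516 to 0.0749).

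For uptake, binding and storage of retinoids 15 of 23 listed genes were tested. The count was 2 higher and 1 lower with PFNA under LD, 3 higher with darkness in DMSO eyes and 3 higher with darkness in PFNA eyes. With PFNA under DD limma called 0 of 15, as did voom, with 3 and 4 of them at an unadjusted p under 0.05. Without 1 library at a time the 4 counts ran from 1 to 3, 0 to 5, 2 to 4 and 0 to 1 called, and without eye DD PFNA replicate 4 they were 3, 5, 2 and 0. The retinol-binding protein gene rbp4l rose with PFNA under LD from 248 ± 11.1 to 479.6 ± 36.1 FPKM (log2 0.94 ± 0.21, limma, adjusted p = 0.00817), and the plasma carrier gene rbp4 rose with darkness in DMSO eyes from 17.2 ± 2.99 to 37.1 ± 6.12 FPKM (1.07 ± 0.29, adjusted p = 0.0267). The rbp4 call was lost without LD DMSO replicate 2 or 3 or DD DMSO replicate 2 or 4 (adjusted p from 0.0628 to 0.074). The carotenoid-cleaving oxygenase gene bco2a rose with darkness in PFNA eyes from 4.58 ± 0.513 to 9.42 ± 2.19 FPKM (0.88 ± 0.18, limma, adjusted p = 0.00713). Without eye DD PFNA replicate 4 its adjusted p was 0.0161. PFNA under LD had lowered bco2a to that 4.58 FPKM from 7.69 FPKM (-0.61 ± 0.18, limma, adjusted p = 0.0402).

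For retinoic acid synthesis, breakdown and receptors 14 of 16 listed genes were tested. The counts in the 4 comparisons were 1 higher and 2 lower, 1 higher and 2 lower, 1 and 1, and 1 higher and 4 lower, and without 1 library at a time they ran from 1 to 5, 1 to 4, 1 to 2 and 2 to 5 called. They were 5, 4, 2 and 3 called when eye DD PFNA replicate 4 was left out. With darkness in DMSO eyes, 2 of 14 called is near the 12.6% of all tested genes. The retinoic acid hydroxylase gene cyp26a1 fell with PFNA under DD from 17.1 ± 4.05 to 6.90 ± 2.19 FPKM (log2 -1.21 ± 0.19, limma, adjusted p = 0.000705). Without eye DD PFNA replicate 4 its adjusted p was 0.00177. Under LD the mean of cyp26a1 was also lower with PFNA, at 12.8 FPKM against 20.3 FPKM with DMSO. Its relative cyp26c1 rose with PFNA under LD from 7.03 ± 0.905 to 11.4 ± 1.02 FPKM (0.63 ± 0.14, adjusted p = 0.00683). Of the retinoid X receptor genes, rxrbb rose with darkness in DMSO eyes from 4.14 ± 0.276 to 6.26 ± 1.1 FPKM (0.49 ± 0.12, adjusted p = 0.0134), and rxraa fell with darkness in PFNA eyes from 22.6 ± 2.12 to 15.6 ± 2.65 FPKM (-0.52 ± 0.11, adjusted p = 0.01; 0.00891 without that library, 0.0908 with only the 2 groups fitted). For the difference of the PFNA change between DD and LD, limma and voom called 0 members of each of the 3 lists, with 3, 2 and 7 at an unadjusted limma p under 0.05 and 3, 2 and 8 by voom.

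**Figure D4:**
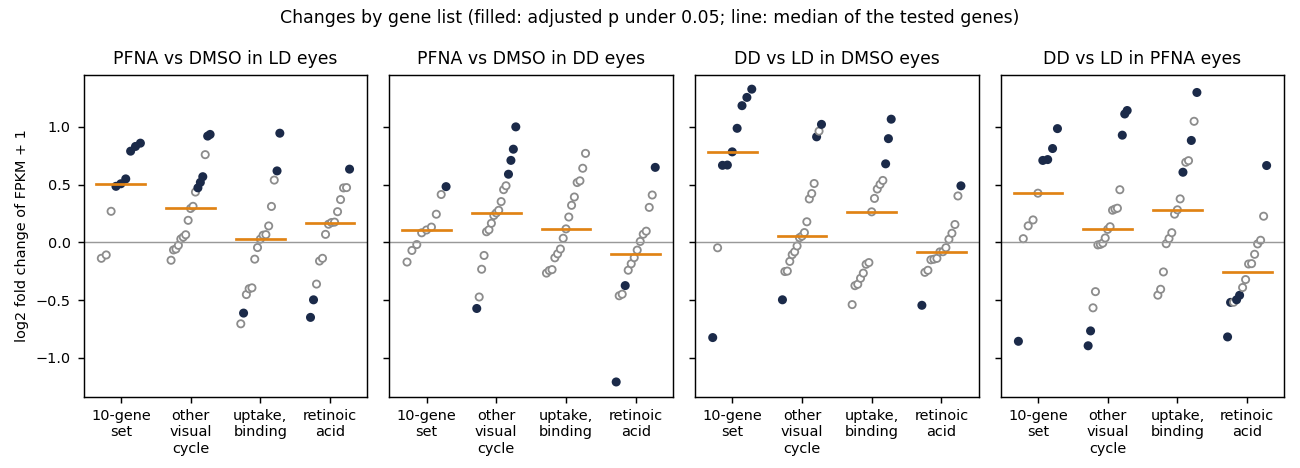
Log2 fold change of FPKM + 1 for each tested gene of the 10-gene set (9 tested) and of the 3 further lists, in the 4 comparisons (filled symbols for an adjusted p under 0.05, line at the median). The medians of the 9 tested members are 0.51, 0.11, 0.78 and 0.43, and those of the other visual cycle genes are 0.29, 0.25, 0.05 and 0.11.

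Markers of the cells that use these genes did not all move with them. The 13 RPE and melanin markers, none at 0 in the eye libraries, summed to 326 to 438 FPKM in LD DMSO, 449 to 603 in LD PFNA, 297 to 326 in DD DMSO and 299 to 437 in DD PFNA. Of the 13, 2 rose with PFNA under LD (median log2 0.40), 2 fell with darkness in DMSO eyes (-0.12) and 6 fell with darkness in PFNA eyes (-0.52). Without eye DD PFNA replicate 4, 2 fell in the last of these. Beside each marker list stands the share of all tested genes called. It was 10.7% (PFNA under LD), 10.9% (PFNA under DD), 12.6% (darkness, DMSO) and 16.1% (darkness, PFNA), the last 11.0% without that library. For PFNA under LD and for darkness in DMSO eyes, 2 of 13 is near these shares. Without that library 4 rose with PFNA under LD, where 17.7% of all genes were called. With darkness in DMSO eyes 2 fell without it, where 22.1% were called. With all libraries, 9 and 4 of the 13 had an unadjusted limma p under 0.05 in these comparisons, with no share of all genes given. The summed RPE and melanin markers were higher in LD PFNA than in LD DMSO, as rpe65a was, and not higher in DD DMSO, where rpe65a was. Most of the listed genes are pigment genes. The most abundant, tyrp1b, averaged 136.2 FPKM in LD DMSO, 176.9 in LD PFNA and 95.88 in DD DMSO. Müller glia markers, 11 of 12 tested and none at 0 in all 16 eye libraries, summed to 861 to 934 FPKM in LD DMSO, 1100 to 1254 in LD PFNA, 898 to 1175 in DD DMSO and 1327 to 1797 in DD PFNA. Much of this sum was glula alone, at 437.7, 719.5, 614.4 and 979.6 FPKM on average in the same order. The next most abundant, fabp7a, averaged 190.6, 163.3, 116.6 and 181.4 FPKM. Of the 11 tested, 1 rose with PFNA under each photoperiod, 3 rose and 1 fell with darkness in DMSO eyes, and 1 rose with darkness in PFNA eyes (none without eye DD PFNA replicate 4). For PFNA, 1 of 11 is no more than the 10.7% and 10.9% of all tested genes called. Without eye DD PFNA replicate 4, 3 of 11 rose with PFNA under LD and 1 under DD, where 17.7% and 14.1% of all genes were called. Summed photoreceptor markers were lower than in LD DMSO in the 3 other groups, but the single rod markers did not share one direction. Rod markers summed to 3357 to 4869 FPKM in LD DMSO and 2513 to 2925 in LD PFNA, with 5 of 14 tested falling with PFNA under LD, and to 2299 to 3257 in DD DMSO and 2090.4 to 2922 in DD PFNA. Much of the rod sum was the rhodopsin gene rho, at 2752 FPKM on average in LD DMSO and 1617 FPKM in DD DMSO. With darkness in DMSO eyes 1 of 14 rod markers rose, pde6ga, and 2 fell, with a median log2 change of 0.08. With PFNA under DD 3 of 14 fell (median -0.39), and 6 fell without eye DD PFNA replicate 4. With darkness in PFNA eyes 1 rose and 2 fell (median 0.01), and 1 rose and 1 fell without that library. Cone markers, with opn1mw4 and cngb3.1 at 0 in all 16 eye libraries, summed to 14939 to 18593 FPKM in LD DMSO, 9643 to 13005 in LD PFNA, 10878 to 12260.0 in DD DMSO and 8398 to 12780 in DD PFNA. Of the 18 cone markers tested, 7 fell and 2 rose with PFNA under LD, and as many did so with darkness in DMSO eyes. They were not all the same genes. Those higher with PFNA under LD were arr3b and cnga3b, and cnga3b averaged 38.81 FPKM in LD DMSO and 29.99 in DD DMSO. With PFNA under DD 8 fell and 1 rose (10 and 1 without eye DD PFNA replicate 4, which held the highest cone sum of its group). With darkness in PFNA eyes 7 fell and 2 rose (8 and 2 without that library). The exocrine pancreas markers, with ctrb1 at 0 throughout, summed to 25.1 to 123 FPKM in LD DMSO and 77.6 to 397 in DD DMSO, and 8 of 11 rose with darkness in DMSO eyes. Of the 9 liver and plasma protein markers tested, limma and voom called 0 in any comparison (1 had an unadjusted p under 0.05, for darkness in PFNA eyes), and their sum was 925 FPKM in eye DD PFNA replicate 1 against at most 129 FPKM in any other eye library. The part of any of these in the members' changes was not tested.

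In brain the members were low apart from rgra. Over 15 brain libraries rgra ran from 16.04 to 34.5 FPKM, and none of the other 9 members exceeded 3.57 FPKM. The remaining one, labelled brain DD PFNA replicate 3, had eye levels instead, with rbp3 at 501 FPKM, rpe65a at 377 FPKM and rlbp1a at 67.7 FPKM, and these genes took 0.299% of its fragments against at most 0.007% in the other brain libraries. It takes no part in any comparison of eyes.

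**Figure D5:**
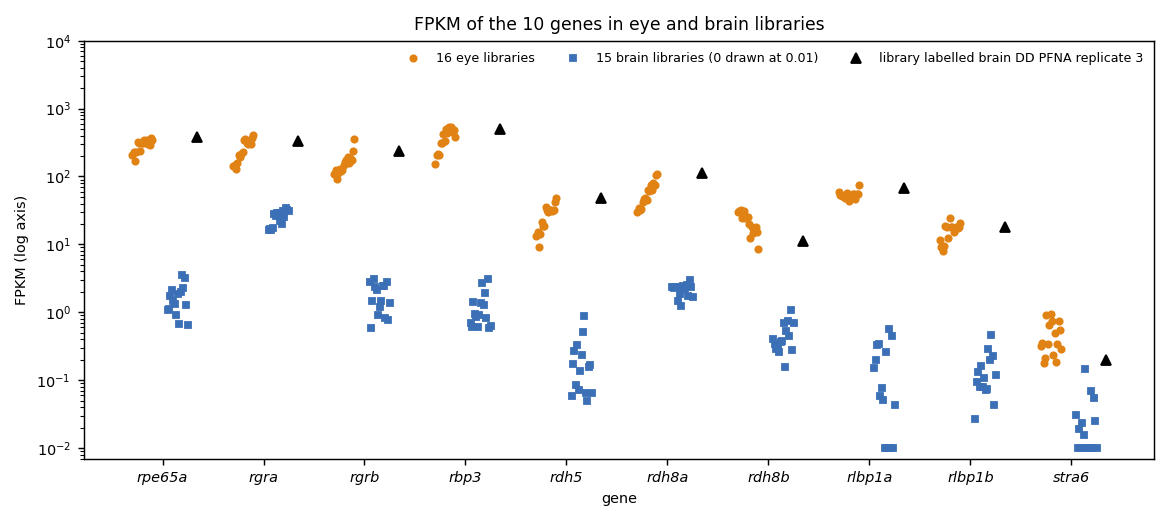
FPKM (log axis, 0 drawn at 0.01) of the 10 genes in 16 eye libraries, 15 brain libraries and the library labelled brain DD PFNA replicate 3. That library lies with the eyes, for stra6 (0.2 FPKM) just above the highest of the 15 brain libraries, and rgra is the member with the highest brain level (16.04 to 34.5 FPKM).

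The brain values of rgra were followed after they had been seen. It stood at 16.6 ± 0.472 FPKM in LD DMSO brains (SD, n = 4, 16.04 to 17.1) and 28.2 ± 1.20 FPKM in LD PFNA (26.5 to 29.4), without overlap. In darkness it was 24.6 ± 4.77 FPKM with DMSO (19.9 to 31.0) and 31.5 to 34.5 FPKM in the 3 PFNA libraries left after setting aside the library labelled brain DD PFNA replicate 3. In a limma fit of brains without that library, rgra rose with PFNA by 0.73 ± 0.10 under LD (log2, adjusted p = 0.000639, with 7.9% of all genes called) and by 0.42 ± 0.11 under DD (adjusted p = 0.039, with 6.62% called). With all 16 brain libraries the adjusted p-values were 0.618 (2.32% of all genes called) and 0.227 (4.12% called). The 4 other members tested in brains (rbp3, rpe65a, rgrb and rdh8a) were not called with PFNA under either photoperiod without that library, with adjusted p from 0.284 to 0.984. The brain libraries are separate from the eye libraries of the same treatment, and the labels do not say whether they came from the same embryos.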

How the data were processed

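Per the labels, RNA from dissected eyes and brains was reverse transcribed from random hexamers, with directional and non-directional preparation both described. HISAT2 (2.0.5) and featureCounts (1.5.0-p3) are listed, with no role stated, per the submitters' processing notes. The deposited table holds FPKM as the authors computed it; 2 columns of pooled means were not used. Multiplied by gene length, 100% of values came out as whole fragments (tolerance 0.05) after division by one step size per library. limma 3.58.1 in R 4.3.3 (lmFit, eBayes with trend) was fitted to log2(FPKM + 1) over the 16 eye libraries with a mean for each group, keeping genes that reached 1 FPKM in 4 or more libraries, and the fit was tried on simulated data. Fold changes on this scale understate those of low genes. Replicate numbers were not used to pair the libraries in the main fit (r of same-numbered deviations -0.034 to 0.215, not over 0.1 for every pair of any 2 groups). Between DD DMSO and DD PFNA this r ran from 0.006 to 0.215. Whether a number marks a shared clutch or day remains unknown. The members and lists were chosen with earlier results of these data known. The other pathway genes named are the 4 called genes with the smallest p of the 3 lists in each comparison. A gene named for one comparison may therefore have changed in others too. Likeness is Pearson r over the 16 eye libraries among named, tested genes outside the set, with 1 gene named per member and 2 more for members called in at least 3 comparisons. The fit was repeated with 0.1 as pseudocount, unfiltered, after median-ratio scaling, with a replicate block, with only the groups compared, by voom on recovered fragments, and without each library in turn. Chi-square per degree of freedom between replicate eye libraries was 10.25 to 83.63, so no 2 of them were taken as 1 library. Visual cycle symbols not matched in the table were rdh11, rdh13 and rdh1l, and marker symbols not matched were pde6h, bfsp1 and hpx.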

Additional observations from a re-analysis of the deposited data

Results flagged for a closer look

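Within groups of 4, a sample was singled out when its gap to the next one exceeded the share of the group's range that Dixon's critical value sets. Over 136 gene and group pairs (the 10 members in 8 groups and 14 named pathway genes in the 4 eye groups) this singled out 15 values, and chance alone gives about 1 in 20. The eye groups gave 4 of the 15, over 40 member pairs and 56 pathway gene pairs, which is no more than that rate. In eyes, rbp3 was low in LD DMSO replicate 1, at 151.8 FPKM against 206.2 to 213.7 in the other 3, and rdh5 was high in LD PFNA replicate 4, at 36.12 FPKM against 18.45 to 21.08. The dehydrogenase gene rdh10b was high in LD PFNA replicate 1 (5.9 FPKM against 4.636 to 4.79) and rdh10a was low in LD DMSO replicate 4 (12.07 FPKM against 17.55 to 17.73).

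The library labelled brain DD PFNA replicate 3 accounted for 9 of the values. In FPKM it held rpe65a at 376.8, rgra at 332.4, rgrb at 233.9, rbp3 at 500.9 and rdh5 at 47.55. It held rdh8a at 114.0, rdh8b at 11.28, rlbp1a at 67.75 and rlbp1b at 17.89. The other 3 brain DD PFNA libraries had at most 34.51 FPKM for rgra and at most 3.19 for any of the other 8. At the edge of detection, stra6 was high in brain LD PFNA replicate 3 (0.1453 FPKM) and in brain DD DMSO replicate 3 (0.06811 FPKM, the other 3 at 0).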

How the results depend on the processing

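Fitting only the groups compared moved the number of genes called from 1956 to 3108 (PFNA under LD), from 1983 to 734 (PFNA under DD), from 2288 to 3546 (darkness, DMSO) and from 2928 to 348 (darkness, PFNA), and of members from 1 to 0 for PFNA under DD and from 5 to 2 for darkness in PFNA eyes. The cause was not tested. Leaving out 1 library at a time gave 4 to 6, 1 to 1, 7 to 8, 4 to 6 and 0 to 0 members called, and 1307 to 3198, 1329 to 2541, 1253 to 3993, 1467 to 3565 and 6 to 57 genes, in the 5 comparisons. The replicate block gave 6, 1, 8, 6 and 0 members and 1841, 1925, 2243, 2920 and 24 genes; with it rbp3 passed for darkness in PFNA eyes (adjusted p = 0.0491) and no other member's call changed. With voom the median gene stood at -0.12 for PFNA under DD, against -0.02, and voom split the called genes 1097 higher and 1007 lower, 871 and 1215, 1497 and 1120, and 1315 and 1598, against 1283 and 673, 1190 and 793, 1133 and 1155, and 1281 and 1647.

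Every reversal was of a change that was not called. In PFNA under DD, rgra became -0.0134 with voom. With median-ratio scaling the difference of differences of rdh8a became 0.0196. Leaving out single libraries, the log2 change for PFNA under DD ran from -0.0762 to 0.0383 (rpe65a), -0.0011 to 0.155 (rgra), -0.139 to 0.0165 (rbp3), -0.279 to 0.0519 (rdh8b) and -0.0022 to 0.232 (rlbp1a). It ran from -0.0807 to 0.0002 for rlbp1a with darkness in DMSO eyes, from -0.133 to 0.175 for rlbp1b with darkness in PFNA eyes, and for the difference of differences from -0.0679 to 0.271 (rgrb), -0.0819 to 0.0848 (rdh8a) and -0.141 to 0.19 (rdh8b). The log2 ratio ran from -0.15 to 0.034 for rgra/rgrb and -0.0442 to 0.399 for rlbp1a/rlbp1b with darkness in PFNA eyes, and from -0.0573 to 0.108 for rlbp1a/rlbp1b with PFNA under DD. Without LD PFNA replicate 1 or DD DMSO replicate 3, 4 ratio differences each reached an adjusted p of 0.049 (exact permutation test). That value is set by how many comparisons shared the smallest p. Without LD PFNA replicate 1 the rdh8a/rdh8b difference for PFNA under LD was 0.74, against 0.62 with all libraries, and joined them. Without DD DMSO replicate 3 the rgra/rgrb difference for PFNA under DD was -0.41, against -0.33, and joined them. Over the settings that kept all libraries, 253 member changes kept direction and call, 2 gained a call, 4 lost one and 2 reversed, and for left-out libraries the numbers were 679, 3, 14 and 24. Depth limits stra6, with 7 to 47 fragments per eye library.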
